A study of Danio rerio with 21 samples.

Results

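Resection was compared with sham surgery at 1 day post-injury (1 dpi) in nuclei captured from adult zebrafish hearts. The comparison took in 6 of the 21 libraries of the series, 3 from resected and 3 from sham-operated fish, chosen by the treatment and day in their labels, and it was made across all genes. Every fish was an adult of the TgBAC strain ox133, which carries mpeg1:BirA-Citrine together with bactin:Avi-Cerulean-Rangap. An mpeg1 BAC drives the biotin ligase BirA in this strain, and a ubiquitous promoter drives the Avi-tagged nuclear envelope protein that BirA biotinylates, so that the nuclei of cells with an active mpeg1 BAC can be pulled down on streptavidin beads. Both groups carried both transgenes. The apex of the ventricle was cut off in the resected fish, and the ventricle was only exposed in the sham fish. Each library came from a single heart, so the p-values measure the spread between hearts and their libraries together.

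The zebrafish heart replaces lost muscle after resection of the apex, with little lasting scar. A clot seals the wound first, neutrophils and macrophages enter it, and the epicardium and the surviving cardiomyocytes respond over the following days. Macrophages release inflammatory cytokines, clear debris and remodel matrix in this setting, and mpeg1 encodes a pore-forming protein of phagocytes that is widely used to mark them in zebrafish. RNA of captured nuclei is rich in young transcripts, whereas ribosomal protein, mitochondrial and sarcomere transcripts are mostly cytoplasmic.

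The libraries of the 2 groups differed in how many genes they held. The resection libraries had 16213475 to 17851176 counts and 20122 to 21742 genes with 1 count or more. The sham libraries had 28394646 to 61141100 counts and only 12608 to 14075 such genes. After every library was thinned to 16213475 counts, the shams held 11685 to 13287 genes and the resections 20038 to 21742. The 100 most abundant genes took 49.1% to 68.0% of the counts in the shams, highest in sham replicate 3, and 40.4% to 42.0% after resection. Scaling by TMM (trimmed mean of M-values) gave factors of 0.453 to 0.867 for the shams and 1.45 to 1.46 for the resections. The part of this difference in the results below was not tested, and it cannot be told apart from surgery, since it separates the groups completely.

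**Figure D1:**
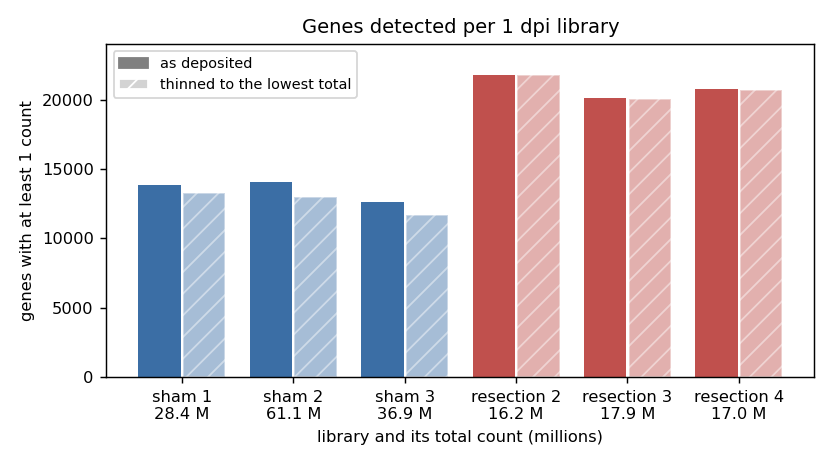
Genes with 1 count or more (y axis) in each 1 dpi library (x axis, with its total count), as deposited (solid bars) and after thinning to the lowest total (hatched bars). All 3 sham libraries lie at or below 14075 genes and all 3 resection libraries at or above 20122.

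The captured material was checked against marker genes. The summed level of the 24 macrophage genes found in the table was 126, 364 and 602 CPM, that is, counts relative to a TMM-scaled library total, in sham replicates 1, 2 and 3 and 746, 1010 and 1040 CPM in resection replicates 2, 3 and 4. The lowest resection library was therefore above the highest sham. The 30 cardiomyocyte genes summed to 147000, 135000 and 278000 CPM in the shams and to 55400, 43100 and 44900 CPM after resection, so that cardiomyocyte transcripts outweighed macrophage transcripts in every library and by most in the shams. mpeg1.2, the copy of the marker gene listed here under that name, had 0 counts in every sham and 1.70, 4.75 and 0.937 CPM after resection, at least 76.5-fold higher. This bound, and each later one against shams at 0, allows for counting error only and not for the spread between hearts. In pulled-down nuclei from whole hearts, fewer nuclei of a cell type and less RNA per nucleus cannot be told apart.

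Of 15764 genes tested, 1780 were higher after resection (11.3%) and 374 were lower (2.37%) at an adjusted p-value under 0.05 in edgeR's quasi-likelihood test with Benjamini-Hochberg adjustment. The 2 directions concerned different kinds of gene. Among the higher genes, 1260 had 0 counts in all 3 shams, 394 had 1 to 3 sham counts in total and 126 had more. A gene at 0 in every sham could enter the test only through its resection counts, and 1260 of the 1265 tested genes of this kind were called, so that their number is no separate evidence of a response. The higher genes made up 0.0233% to 0.0547% of CPM in the shams and 1.91% to 2.60% after resection. The lower genes were abundant, with 372 of the 374 holding at least 10 counts in each of the 6 libraries, against 22 of the higher genes. They made up 37.5% to 47.1% of CPM in the shams and 19.1% to 19.7% after resection. Called or not, 4485 genes tested (28.5%) were higher with no overlap between the groups in CPM, and 1302 (8.26%) were lower.

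These calls lay close to the threshold. The adjusted p-value was over 0.03 for 1770 of the 1780 higher genes and for all 374 lower genes, with a smallest value of 0.00703. Without 1 library the counts of higher and lower genes fell to 11 and 0 (without sham replicate 1), 56 and 121 (sham replicate 2), 11 and 1 (sham replicate 3), 3 and 0 (resection replicate 2), 1 and 0 (resection replicate 3) and 0 and 0 (resection replicate 4). An unadjusted p-value under 0.05 was found for 3356 to 6268 genes in these fits, against 3826 in the main fit, and these need not be the same genes. DESeq2's Wald test called 3708 higher and 580 lower. The sign was kept for each of the called genes that were tested again in each of these fits. A gene at 0 in every sham could not change sign, and the fits share their libraries, so this agreement was largely fixed in advance. The median log2 fold change of all genes tested was 0.26, and it was 0.14 with DESeq2's size factors and 0.52 with upper-quartile scaling, so a fitted change close to 0 has no fixed direction. Over the 7124 genes holding 10 or more counts in each library the median was -0.43. The higher share of the calls was 82.6%, 82.5% and 90.0% under these scalings.

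**Figure D2:**
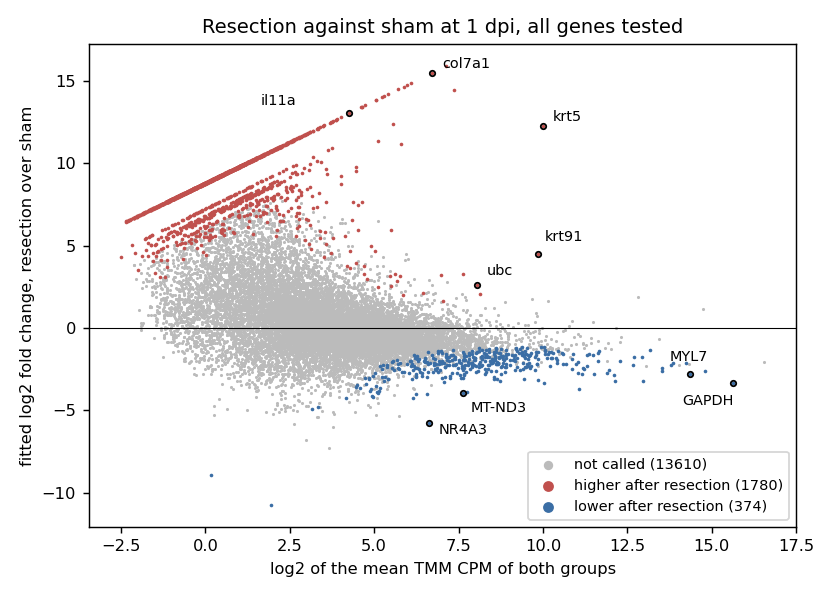
Fitted log2 fold change of resection over sham (y axis) against the log2 mean CPM of both groups (x axis) for the 15764 genes tested, coloured by call. The straight band at the upper left holds genes at 0 counts in every sham, whose fitted fold change follows from their level after resection, and the 374 lower genes sit mainly among abundant transcripts.

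Epithelial genes were the most often called of the cell type lists. Of 47 tested members of the list of epidermal and other epithelial genes, 36 were higher (76.6%, against 11.3% of all genes tested) and none was lower, with a median log2 fold change of 10.42 as fitted and 8.02 with genes at 0 in every sham set to their lower bound. Members at or near 0 in the shams carry this median, and the 9 members holding 10 or more counts in each library had a median of 0.16, with 5 of them above 0. Of the 36, 23 had 0 sham counts, 7 had 1 to 3 and 6 had more. The 23 entered the test only through resection and are no separate evidence of a response. The list was chosen with earlier results of these data known, so its share is not independent of the calls. With 1 library left out, 0 to 18 members were called higher, the most without sham replicate 2. The summed level of all 55 members was 1940, 4730 and 2070 CPM in the shams and 5240, 8100 and 9750 CPM after resection. On 1 scale for all 21 libraries of the series the groups overlapped, at 1792 to 4333 CPM in the shams and 4279 to 7932 CPM after resection.

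Keratins, which form the intermediate filaments of epithelial cells, held the largest counts. krt5, a keratin of basal epidermal cells in mammals, had 1.19, 0.0189 and 0.0598 CPM in the shams and 1419.8, 2658 and 2068 CPM after resection, and its fitted log2 fold change was 12.27 (SE 1.55, adjusted p = 0.0316). Every resection library was far above the highest sham, and 28.5% of all genes tested were higher without overlap. krt91 was detected in every library, at 50.8, 104 and 80.0 CPM in the shams and 1305, 1746 and 2210.4 CPM after resection, a fitted log2 fold change of 4.48 (SE 0.44, adjusted p = 0.0132). It was called in 10 of 15 alternative fits. krt17 had a single count in the shams and 164, 233 and 584 CPM after resection, a ratio of 30484 (95% counting interval 5471 to 1204058), and it had the smallest p-value of all genes (adjusted p = 0.00703, called in 12 of 14 alternative fits). krt97 and krt1-19d had 0 counts in every sham and were at least 3938-fold and 2660.5-fold higher after resection, at 123, 118 and 139 CPM and 72.9, 52.5 and 132 CPM. Not all keratins took this course. krt4, a keratin of superficial epidermis in zebrafish, had 498, 1915 and 659 CPM in the shams and 482, 906 and 1151 CPM after resection (adjusted p = 0.859), and krt15 had 286, 1076 and 1013 CPM in the shams and 461, 982 and 670.2 CPM after resection (adjusted p = 0.916). The groups overlapped for both genes. Of 15 tested keratins 6 were higher (40.0%, against 11.3% of all genes tested) and none lower. The list's median log2 fold change was 2.32, and it was -0.27 over the 8 keratins holding 10 or more counts in each library, of which 2 were above 0.

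Several genes of epithelial adhesion were also higher. epcam, an epithelial adhesion molecule, had 2 counts over the shams and 45.5, 68.7 and 92.3 CPM after resection, a ratio of 3209 (95% counting interval 888 to 26499). cdh1, which encodes E-cadherin of adherens junctions, had 0, 0.624 and 0.0598 CPM in the shams and 33.5, 48.0 and 67.7 CPM after resection, and its fitted log2 fold change was 7.65 (SE 1.602, adjusted p = 0.0316). pkp3a, a desmosomal plaque protein, had 0, 0 and 0.179 CPM in the shams and 67.4, 123 and 141 CPM after resection, a ratio of 3426 (95% counting interval 1172 to 16614). The groups stood apart for all 3 genes, as they did in this direction for 28.5% of all genes tested. evpla and ppl, which encode the cell envelope and desmosome linkers envoplakin and periplakin, had 14.7, 28.1 and 44.2 CPM and 29.6, 41.0 and 60.1 CPM after resection and at most 0.12 CPM in any sham. cdh26.2, a cadherin, was at 0 in every sham and had 35.0, 61.8 and 53.4 CPM after resection, at least 1556-fold higher. Of 37 tested genes of desmosomes and other cell junctions 17 were higher (45.9%, against 11.3% of all genes), 2 of them with more than 3 sham counts, and none was lower. This list was chosen after the called genes had been seen, so its share is not independent of the calls. Some of its members, such as evpla and ppl, also belong to the epithelial list. The list's median log2 fold change was 1.99, and it was 0.26 over the 11 members holding 10 or more counts in each library. Among 22 tested claudins, the strand proteins of tight junctions, 12 were higher (54.5%, against 11.3% of all genes). Of the 12, 8 had 0 sham counts and so entered the test only through resection, 3 had 1 to 3 and 1 had more. The median of the claudin list was 6.50 as fitted and 5.48 with genes at 0 in every sham set to their bound. It was 0.63 over the 2 claudins holding 10 or more counts in each library. cldnb had 0 counts in every sham and 66.3, 87.4 and 159 CPM after resection, at least 3239.8-fold higher, and cldna had a single sham count and 13.6, 18.6 and 22.6 CPM after resection, a ratio of 1703 (95% counting interval 306 to 67259). TP63, a transcription factor of basal epithelium, did not pass the test, at 18.6, 26.6 and 1.14 CPM in the shams and 36.9, 50.8 and 71.1 CPM after resection (adjusted p = 0.36).

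Secretory and basement membrane genes were called as well. muc5.2, a gel-forming mucin, had 0 counts in every sham and 134, 245 and 459.9 CPM after resection, at least 8689-fold higher (adjusted p = 0.0132). agr2, an endoplasmic reticulum protein needed for mucin production in mice, was at 0 in every sham and at 62.1, 37.99 and 127 CPM after resection, at least 2353-fold higher. Of 7 tested genes of the mucin and secretory list 5 were higher (71.4%, against 11.3% of all genes), 4 of them from 0 sham counts. This list too was chosen after the called genes had been seen. col7a1, the collagen of the anchoring fibrils under epithelium, had 0 sham counts and 106, 304 and 214 CPM after resection, at least 6472-fold higher (adjusted p = 0.0132), and was called in 11 of 14 alternative fits. Genes at 0 in every sham, such as muc5.2, agr2 and col7a1, entered the test only through resection. The alternative fits reuse the same libraries, so these calls are no separate evidence of a response. col17a1b, a hemidesmosomal collagen, had 0, 0.0756 and 0 CPM in the shams and 19.8, 28.9 and 23.8 CPM after resection, and its fitted log2 fold change was 9.39 (SE 1.75, adjusted p = 0.0316). ITGB4, the integrin subunit of hemidesmosomes, was detected in every library, at 18.6, 47.3 and 7.65 CPM in the shams and 104, 239.9 and 335 CPM after resection, and its fitted log2 fold change was 3.21 (SE 0.77, adjusted p = 0.0316). These genes of the epithelium and its attachment had no overlap between the groups. Of all genes tested, 28.5% were likewise higher without overlap. tnks1bp1, which encodes a tankyrase-binding protein, had 0 counts in every sham and 68.8, 180.1 and 162 CPM after resection (adjusted p = 0.0136).

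**Figure D3:**
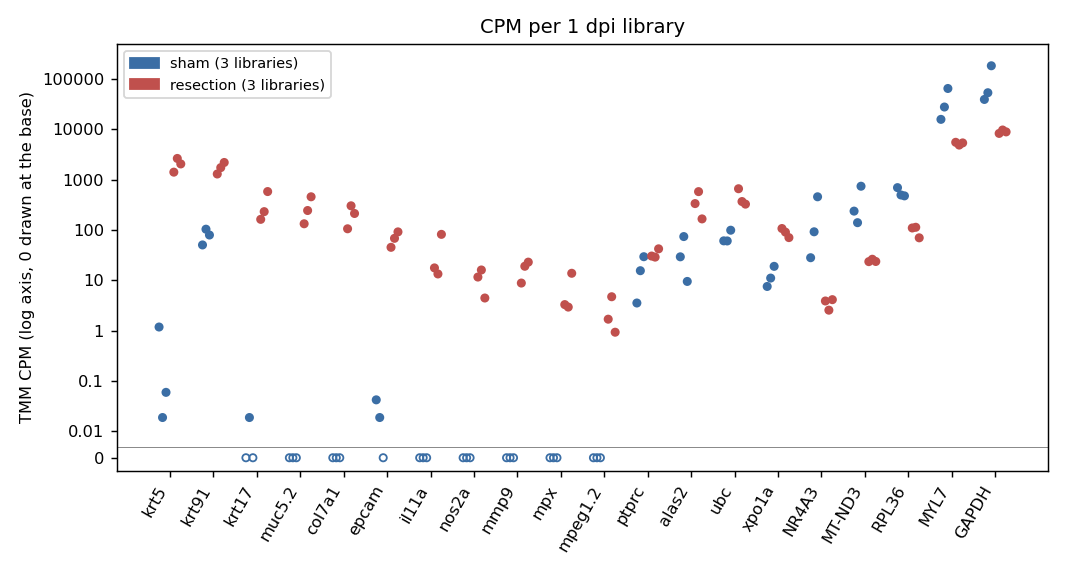
TMM-scaled CPM (y axis, log scale, with 0 drawn as open circles at the base) of 20 named genes (x axis) in the 3 sham and 3 resection libraries at 1 dpi. krt5, krt17 and the genes from muc5.2 to mpeg1.2 sit at or near 0 in the shams, krt91, alas2, ubc and xpo1a are measurable in both groups and higher after resection, ptprc does not pass the test, and the genes from NR4A3 to GAPDH are lower.

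Most other collagens and matrix genes did not pass the test. Of 32 tested collagen chains 6 were higher (18.8%, against 11.3% of all genes) and none was lower. Their median log2 fold change was 0.16. col11a1a, a fibrillar collagen chain, had 0.17, 0 and 0 CPM in the shams and 15.0, 58.3 and 58.5 CPM after resection, and its fitted log2 fold change was 9.56 (SE 1.83, adjusted p = 0.0316). col1a1a, the main chain of type I collagen, had 306, 952 and 349.6 CPM in the shams and 339, 608 and 761 CPM after resection (log2 fold change 0.09, SE 0.53, adjusted p = 0.963), and FN1, which encodes fibronectin, had 1042, 2952 and 1008 CPM in the shams and 939, 2074 and 2526 CPM after resection (log2 fold change 0.15, SE 0.54, adjusted p = 0.93). The groups overlapped for both, at levels far above those of col11a1a. Of 54 tested matrix glycoproteins and their receptors 5 were higher (9.26%, under the 11.3% of all genes tested), with a median of 0.38. cd44a, a hyaluronan receptor, had 0 counts in every sham and 13.3, 11.6 and 43.2 CPM after resection, at least 706-fold higher. LAMC3 (1 of 2), a laminin chain, was at 0 in every sham and at 8.41, 15.0 and 11.7 CPM after resection, at least 364-fold higher. Of 57 tested proteases, inhibitors and crosslinkers of matrix 10 were higher (17.5%, against 11.3% of all genes), with a median of 0.56 (log2). mmp9, a gelatinase of neutrophils, macrophages and wound epithelium, had 0 sham counts and 8.88, 19.1 and 23.1 CPM after resection, at least 529.9-fold higher. MMP25 (1 of 2) and loxl3a, a membrane-bound metalloproteinase and a collagen crosslinker, were at 0 in every sham and at most 3.46 CPM after resection. Of 21 tested integrins 4 were higher, a share above the 11.3% of all genes tested, and none was lower. Of the 4, 1 had 0 sham counts, 1 had 1 to 3 and 2 had more. The list's median log2 fold change was 1.07, and it was 0.34 over the 10 integrins holding 10 or more counts in each library. itga4, the α4 subunit used by leukocytes, had 0, 0.0378 and 0.179 CPM in the shams and 6.03, 21.5 and 6.92 CPM after resection (log2 fold change 7.31, SE 2.00, adjusted p = 0.0448).

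Some inflammatory genes were called higher at low levels. Of 24 tested pro-inflammatory cytokines and enzymes 9 were higher (37.5%, against 11.3% of all genes), none was lower and 15 were not called. All 9 had 0 sham counts and so entered the test only through resection. The median log2 fold change of the list was 2.35, and it was 0.43 over the 7 members holding 10 or more counts in each library. il11a, a cytokine of the interleukin-6 family, reached 17.8, 13.5 and 82.4 CPM after resection, at least 1177-fold higher. Resection replicate 4 held most of it. il11b, its paralog, had 13.0, 4.36 and 6.56 CPM, at least 248-fold higher. nos2a, an inducible nitric oxide synthase, had 11.7, 16.1 and 4.48 CPM, at least 335-fold higher. TRIL, an accessory protein of Toll-like receptor 4 in mammals, had 1.61, 0.35 and 3.01 CPM, and IL16 (1 of 2), a chemoattractant of CD4+ cells in mammals, had 0.467, 4.24 and 1.1 CPM. The adjusted p-values of these 5 genes were 0.0316 to 0.0323. Another gene ID named IL16 had 0, 0.2835 and 0 CPM in the shams and 1.955, 0.03892 and 5.051 CPM after resection. Its groups overlapped, and it was not tested. il1b, the classical early cytokine of macrophages, did not pass the test, with 0.382, 0 and 0 CPM in the shams and 4.504, 1.95 and 7.49 CPM after resection (adjusted p = 0.189). Every resection library was above every sham for il1b, as for 28.5% of all genes tested. None of the 9 was called when 1 library, whichever it was, was left out. On the scale of the 6 libraries the epithelial list was higher in the same 3 libraries, at 5240 to 9750 CPM against 1940 to 4730 CPM in the shams. Its part in the levels of these and the following immune genes was not tested.

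Of 23 tested chemokines 7 were higher (30.4%, against 11.3% of all genes), 6 of them at 0 in every sham. The list's median log2 fold change was 0.03. ccl27a, related to a chemokine of mammalian skin, had 5.82, 3.04 and 5.38 CPM after resection, and ccl19b had 2.38, 2.76 and 2.403 CPM, at least 147-fold and 78.2-fold higher. Of 39 tested cytokine and chemokine receptors 6 were higher (15.4%, against 11.3% of all genes), with a median of 1.3. lifrb, a receptor of the interleukin-6 family, had 3.82, 0.0756 and 0.418 CPM in the shams and 60.7, 76.6 and 128 CPM after resection, and its fitted log2 fold change was 5.94 (SE 1.403, adjusted p = 0.0316). csf2rb, the shared β-chain of granulocyte-macrophage growth factor receptors, was at 0 in every sham and at 3.78, 3.85 and 17.6 CPM after resection. tnfrsf18 was at 0 and at 7.05, 11.6 and 8.31 CPM. Both receptors were above every sham in 3 of 3 resection libraries, as were 28.5% of all genes tested. il10ra, a receptor chain for the anti-inflammatory interleukin-10, had 0, 0 and 0.12 CPM in the shams and 2.46, 7.16 and 9.90 CPM after resection and did not pass the test (adjusted p = 0.0673). Of 27 tested genes of Toll-like receptor and NF-kB signalling 5 were higher (18.5%, against 11.3% of all genes), also with a median of 1.3. ticam1, an adaptor of Toll-like receptors, had 0 sham counts and 3.99, 4.51 and 8.63 CPM after resection, and caspb, an inflammasome caspase of zebrafish, had 0, 0.0378 and 0 CPM in the shams and 7.35, 15.8 and 6.88 CPM after resection. Of 45 tested interferon and JAK-STAT genes 4 were higher (8.89%), a share under that of all genes tested.

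Leukocyte markers were called less often than epithelial ones, and this difference between lists was not tested. Of 22 tested macrophage genes 1 was higher (4.55%), mpeg1.2, with a median log2 fold change of 1.34 against 0.26 for all genes. Over the 12 macrophage genes holding 10 or more counts in each library the median was 1.08, with 11 of them above 0. The 9 epithelial genes of this kind had a median of 0.16, with 5 above 0, and all such genes had -0.43. The order of the lists by share called is therefore not their order among genes measurable in both groups. apoeb, a lipoprotein abundant in tissue macrophages, had 0, 66.5 and 42.8 CPM in the shams and 202, 312 and 240.1 CPM after resection (log2 fold change 2.79, SE 1.55, adjusted p = 0.345). cd74a, the invariant chain of antigen presentation, had 3.27, 24.9 and 258 CPM in the shams and 109, 185 and 134 CPM after resection (log2 fold change 0.58, SE 1.18, adjusted p = 0.855). The shams varied widely for both genes, and the groups overlapped for cd74a and not for apoeb. Of all genes tested, 28.5% were higher without overlap. ptprc, the leukocyte antigen CD45, had 3.56, 15.6 and 29.6 CPM in the shams and 30.6, 29.1 and 42.5 CPM after resection, and LCP1, an actin-bundling protein of leukocytes, had 5.69, 15.3 and 21.8 CPM in the shams and 37.3, 21.4 and 22.3 CPM after resection. Neither passed the test (adjusted p = 0.577 and 0.619). Of 19 tested pan-leukocyte genes 2 were higher (10.5%, near the 11.3% of all genes), with a median log2 fold change of 1.14. Over the 11 members holding 10 or more counts in each library the median was 0.92, with 10 of them above 0. hcls1, a leukocyte signalling protein, was among them, at 0.255, 0.246 and 0.897 CPM in the shams and 12.8, 15.96 and 20.2 CPM after resection (log2 fold change 5.13, SE 1.39, adjusted p = 0.0426).

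Of 14 tested neutrophil genes 2 were higher, mpx and mmp9 (14.3%, near the 11.3% of all genes), both from 0 sham counts. The list's summed level was 327, 424 and 90.1 CPM in the shams and 356, 419 and 625 CPM after resection, so that the groups overlapped. Its median log2 fold change was 3.25, and it was -0.06 over the 3 members holding 10 or more counts in each library. mpx, the myeloperoxidase gene of neutrophil granules, had 0 sham counts and 3.31, 2.96 and 13.9 CPM after resection, at least 209-fold higher. lyz, the lysozyme gene, had 0 counts in every sham and 0.0425, 0 and 1.75 CPM after resection and was not tested. adam8a had 6.88, 9.73 and 0.12 CPM in the shams and 41.7, 20.12 and 49.5 CPM after resection and did not pass the test (adjusted p = 0.259). Some red cell genes were also higher. Of 14 tested erythrocyte genes 4 were called higher (28.6%, against 11.3% of all genes) and 10 were not called, with a median log2 fold change of 1.78 for the list, and none of the 4 was called when 1 library, whichever it was, was left out. The list's summed level was 1080, 1250 and 630 CPM in the shams and 2790, 5690 and 1350 CPM after resection. alas2, the first enzyme of haem synthesis in red cells, had 29.5, 74.5 and 9.56 CPM in the shams and 337, 582 and 167 CPM after resection (log2 fold change 3.26, SE 0.80, adjusted p = 0.0325). cahz, the red cell carbonic anhydrase, had 115, 100.2 and 117 CPM in the shams and 391, 761 and 216 CPM after resection (log2 fold change 2.04, SE 0.50, adjusted p = 0.0319). klf1, a transcription factor of erythroid cells, had 5.26, 1.25 and 0.717 CPM in the shams and 73.4, 88.7 and 25.7 CPM after resection (log2 fold change 4.70, SE 1.05, adjusted p = 0.0316). Resection replicate 3 was highest and replicate 4 lowest for each of these red cell genes. No called gene was found among 12 thrombocyte genes tested, and 1 each among 24 endothelial and 26 epicardial and fibroblast genes (4.17% and 3.85%, under the 11.3% of all genes). kdrl, an endothelial receptor, had 36.12, 100.3 and 268 CPM in the shams and 28.7, 34.8 and 27.5 CPM after resection (log2 fold change -2.15, SE 0.72, adjusted p = 0.0932).

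**Figure D4:**
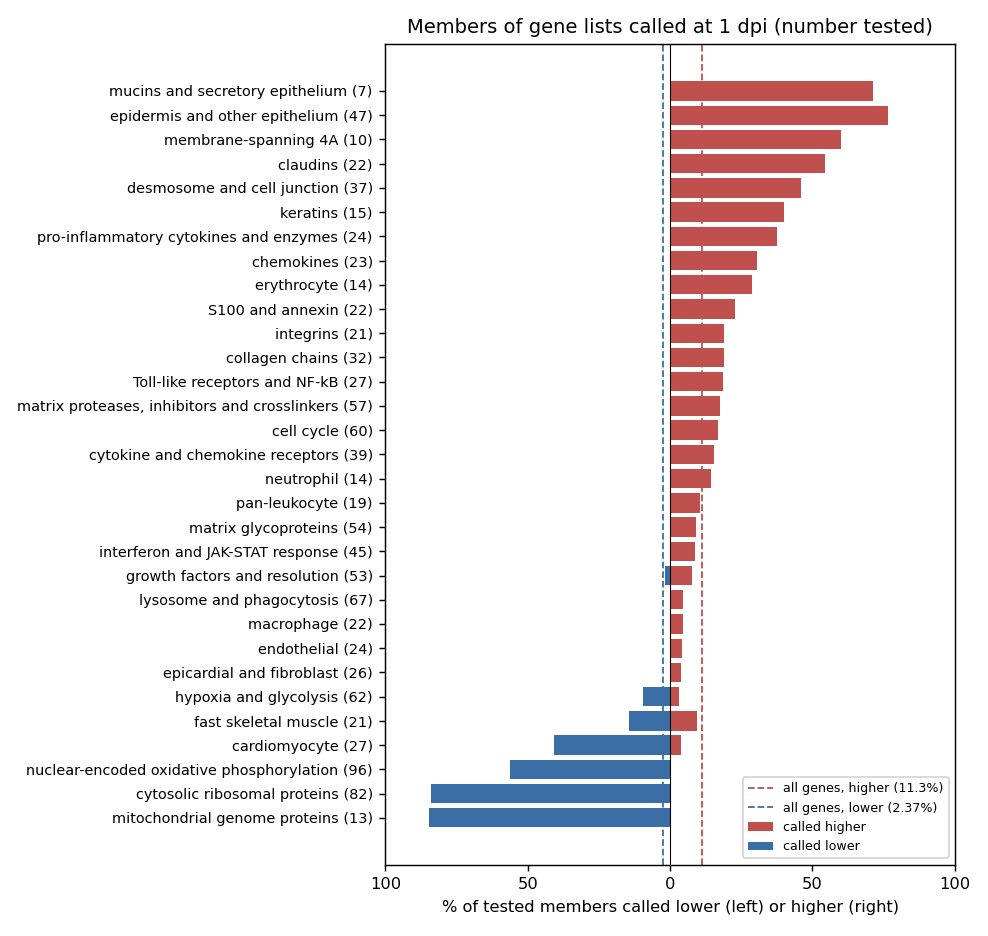
Share of tested members called higher (right) or lower (left) after resection for 31 gene lists (y axis, number tested in brackets), with dashed lines at the shares of all genes tested, 11.3% and 2.37%. Epithelial lists reach 40% to 76.6% on the right, pro-inflammatory genes reach 37.5% and macrophage genes 4.55%, and the ribosomal protein and mitochondrial genome lists reach 84.1% and 84.6% on the left.

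A small number of higher genes were measurable in every library, and these do not rest on shams without counts. The 22 higher genes with at least 10 counts in each of the 6 libraries had log2 fold changes of 1.67 to 4.70, with a median of 3.19. ubc, a polyubiquitin gene, had 61.2, 60.95 and 99.7 CPM in the shams and 665, 370.0 and 329 CPM after resection, and its fitted log2 fold change was 2.62 (SE 0.45, adjusted p = 0.0316). xpo1a, an export receptor of the nuclear pore, had 7.597, 11.2 and 19.1 CPM in the shams and 108, 91.3 and 71.1 CPM after resection (log2 fold change 2.84, SE 0.60, adjusted p = 0.0316), and RANBP2, a pore protein, had 87.6, 62.9 and 37.9 CPM in the shams and 224, 173 and 203 CPM after resection (log2 fold change 1.67, SE 0.45, adjusted p = 0.0413). The lowest resection library was above the highest sham in each case, as for 28.5% of all genes tested. ABCC5, an organic anion exporter, had 31.6, 31.4 and 33.8 CPM in the shams and 98.3, 162 and 166 CPM after resection (log2 fold change 2.14, SE 0.45, adjusted p = 0.0316), with shams that hardly differed. fryb had 7.09, 5.63 and 5.92 CPM in the shams and 54.9, 49.2 and 43.4 CPM after resection (log2 fold change 2.98, SE 0.68, adjusted p = 0.0316), crybg1b had 11.9, 2.29 and 13.6 CPM in the shams and 81.0, 92.2 and 94.6 CPM after resection (log2 fold change 3.27, SE 0.76, adjusted p = 0.0316), and tasor2 had 0.934, 3.16 and 3.94 CPM in the shams and 36.6, 46.9 and 42.0 CPM after resection (log2 fold change 3.96, SE 0.91, adjusted p = 0.0316). Of the 22 genes only krt91 was called when the test was limited to the 7124 genes holding 10 or more counts in each library.

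Many cardiomyocyte genes were lower. Of 27 tested members of the list 11 were lower (40.7%, against 2.37% of all genes tested) and 1 was higher, with a median log2 fold change of -1.22 and called changes of -2.78 to -1.66. With 1 library left out, 0 to 5 members were called lower. None was called lower when the test was limited to the 7124 genes holding 10 or more counts in each library. MYL7, the atrial and ventricular myosin light chain of the zebrafish heart, had 15890.4, 27949 and 65274 CPM in the shams and 5562, 4902 and 5409.7 CPM after resection (log2 fold change -2.78, SE 0.55, adjusted p = 0.0316). MYH7, a myosin heavy chain, had 29108, 14636 and 26400.5 CPM in the shams and 3442, 6674 and 4721 CPM after resection (log2 fold change -2.24, SE 0.43, adjusted p = 0.0316), and tnnc1a, the troponin C gene, had 3093, 1942 and 2998 CPM in the shams and 579, 435 and 753 CPM after resection (log2 fold change -2.19, SE 0.37, adjusted p = 0.0316). Every resection library was below every sham for these genes, as for 8.26% of all genes tested. Outside the list, pln1 had 3169, 4236 and 4272 CPM in the shams and 558, 735 and 855 CPM after resection (log2 fold change -2.44, SE 0.34, adjusted p = 0.0316), and SMPX, a small protein of striated muscle, had 977, 1123 and 1395 CPM in the shams and 231, 193 and 187 CPM after resection (log2 fold change -2.52, SE 0.33, adjusted p = 0.0316). mb, which encodes myoglobin, is a member of the cardiomyocyte list. It had 19179, 28722 and 46319.9 CPM in the shams and 6598, 7187 and 8119 CPM after resection (log2 fold change -2.10, SE 0.42, adjusted p = 0.0316). The higher member was si:dkey-24c2.7, named xirp1 in the reference table, a protein of muscle junctions, at 0, 0 and 0.0598 CPM in the shams and 5.23, 1.21 and 2.32 CPM after resection. Of 21 tested genes of fast skeletal muscle 3 were lower (14.3%, against 2.37% of all genes), 2 were higher (9.52%, against 11.3%) and 16 were not called, with a median of -0.06. ckma, a creatine kinase, was among the lower genes, at 6937, 9730.2 and 15455 CPM in the shams and 2378, 2039.6 and 2300.2 CPM after resection (log2 fold change -2.26, SE 0.39, adjusted p = 0.0316). pvalb1, a parvalbumin of fast muscle, was at 0 in every sham and at 56.9, 1.596 and 1.67 CPM after resection, almost all of it in replicate 2.

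Most ribosomal protein genes and mitochondrial genes were lower. Of 82 tested cytosolic ribosomal protein genes 69 were lower (84.1%, against 2.37% of all genes tested) and none was higher. Their median log2 fold change was -1.78, with called changes of -3.02 to -1.15. Of the 82, 81 held 10 or more counts in each library, as did 372 of the 374 lower genes and 7124 of the 15764 tested. The 2.37% is therefore not a share among genes of like abundance. These 81 also had a median of -1.78, against -0.43 for the 7124. The ribosomal list's summed level was 81700, 51200 and 85900 CPM in the shams and 24400, 26900 and 22000 CPM after resection. RPL36 had 699, 499.6 and 479.6 CPM in the shams and 110.4, 114 and 70.34 CPM after resection (log2 fold change -2.51, SE 0.38, adjusted p = 0.0316), and RPS28 had 420.5, 306 and 292 CPM in the shams and 57.9, 67.6 and 46.6 CPM after resection (log2 fold change -2.56, SE 0.39, adjusted p = 0.0316). Of the 13 protein genes of the mitochondrial genome 11 were lower (84.6%, against 2.37% of all genes), with a median of -2.75. All 13 had no overlap between the groups, where 8.26% of all genes tested were lower without overlap. Their sum was 42000, 46200 and 229000 CPM in the shams and 18400, 17100 and 22000 CPM after resection, so that sham replicate 3 held several times the level of the other shams. MT-ND3, a subunit of complex I, had 239, 141 and 746 CPM in the shams and 23.7, 26.4 and 23.8 CPM after resection (log2 fold change -3.93, SE 0.67, adjusted p = 0.0316). Of 96 tested nuclear genes of oxidative phosphorylation 54 were lower (56.2%, against 2.37% of all genes), with a median of -1.56. This list was chosen after the called genes had been seen. atp5md, a subunit of ATP synthase, had 295, 92.4 and 144 CPM in the shams and 11.6, 11.6 and 10.0 CPM after resection (log2 fold change -4.00, SE 0.59, adjusted p = 0.0316), and COX7C, a subunit of cytochrome oxidase, had 1683, 951 and 2315 CPM in the shams and 195, 226 and 141 CPM after resection (log2 fold change -3.14, SE 0.44, adjusted p = 0.0316). With 1 library left out, 0 to 41 ribosomal, 0 to 3 mitochondrial and 0 to 34 nuclear genes were called lower, in each case the most without sham replicate 2. No gene of any list was called lower when the test was limited to the 7124 genes holding 10 or more counts in each library.

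A few glycolytic genes and regulators were lower as well. Of 62 tested genes of hypoxia and glycolysis 6 were lower (9.68%, against 2.37% of all genes), 2 were higher and 54 were not called, with a median of -0.49. GAPDH, a glycolytic enzyme and the most abundant gene named here, had 39524, 53741 and 184501 CPM in the shams and 8353, 9763 and 8958 CPM after resection (log2 fold change -3.36, SE 0.64, adjusted p = 0.0316). TPI1, an enzyme of the same pathway, had 1427, 2874 and 5889 CPM in the shams and 732, 859 and 836 CPM after resection, and GPI, another, had 389, 484 and 961 CPM and 134, 83.2 and 82.0 CPM. Sham replicate 3 was highest for all 3 enzymes. The resection libraries lay below every sham, as for 8.26% of all genes tested. NR4A3, an orphan nuclear receptor of the immediate early class, had 28.3, 92.7 and 459.9 CPM in the shams and 3.91, 2.57 and 4.16 CPM after resection (log2 fold change -5.77, SE 1.07, adjusted p = 0.0316). Of 68 tested immediate early and stress genes 2 were lower (2.94%, near the 2.37% of all genes) and 1 was higher (1.47%, against 11.3%). TGFB3, a growth factor of the TGF-β family, was the single lower gene of 53 tested growth factor and resolution genes, at 148, 280.3 and 357 CPM in the shams and 54.4, 63.8 and 98.4 CPM after resection (log2 fold change -1.86, SE 0.47, adjusted p = 0.0354), whereas bmp2b, wnt5b, tyro3 and tgfbr1a were higher from 0 sham counts. The shares of this list, 1.89% lower and 7.55% higher, lay under the 2.37% and 11.3% of all genes tested. TGFB2 had 1.36, 25.1 and 14.4 CPM in the shams and 8.24, 3.66 and 11.0 CPM after resection (adjusted p = 0.799). hbegfb, a growth factor that binds the epidermal growth factor receptor in mammals, had 33.6, 2.85 and 1.97 CPM in the shams and 18.8, 7.28 and 22.9 CPM after resection (log2 fold change 0.35, SE 1.28, adjusted p = 0.929). The groups overlapped for both.

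The difference at 1 dpi was set beside that at 5 dpi, where 2 resection and 2 sham libraries from other fish were available. Levels across days are on 1 scale for all 21 libraries. krt5 had 0.0707 and 0.882 CPM in the 5 dpi resections and 0.153 and 0.183 CPM in the 5 dpi shams, and 1.54 to 53.7 CPM in the 4 shams at 14 dpi. krt91 had 28.5 and 103 CPM in the 5 dpi resections and 15.3 and 138 CPM in their shams. Neither gene stood above the shams at 5 dpi in both resections by the margin seen at 1 dpi. il11a had 0.147 and 1.31 CPM in the 5 dpi resections and 0.0511 and 1.74 CPM in their shams. nos2a had 0 and 0.99 CPM in the 5 dpi resections and 0.0511 and 0.32 CPM in their shams. In the 14 dpi shams nos2a had 0.448 to 19.7 CPM, against 3.65 to 13.5 CPM in the 1 dpi resections. MYL7 had 7646 and 15827 CPM in the 5 dpi resections and 5441 and 15034 CPM in the shams, ranges that overlap. ubc had 286 and 468 CPM in the 5 dpi resections and 135 and 959 CPM in the shams. Some other genes measurable in every library had 5 dpi shams that reached the level of the 1 dpi resections. fryb had 93.9 and 266.5 CPM there and 35.3 to 44.8 CPM in the 1 dpi resections. RANBP2 had 118 and 264 CPM there and 145 to 183 CPM in the 1 dpi resections. ABCC5 and tasor2 were lower in the 5 dpi shams, at 40.55 and 62.3 CPM and at 13.9 and 22.7 CPM. Their 1 dpi resections had 80.2 to 135.5 CPM and 29.9 to 39.3 CPM. alas2 had 132 and 192 CPM in the 5 dpi resections and 32.7 and 38.3 CPM in the 5 dpi shams, so that it lay above the shams of this day too. The 14 dpi shams had 40.8 to 559 CPM of alas2, against 136 to 488 CPM in the 1 dpi resections, so a sham heart reached the resection level.

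As lists, the epithelial genes summed to 1357 to 1753 CPM in the 5 dpi resections against 1230 to 1851 CPM in their shams, after 4279 to 7932 CPM in the 1 dpi resections on this scale. The cardiomyocyte list summed to 101896 to 140596 CPM in the 5 dpi resections and 36108 to 45187 CPM in the 1 dpi resections, with 100943 to 158951 CPM in the 5 dpi shams. The ribosomal list summed to 16993 to 28147 CPM in the 5 dpi resections and 25723 to 48789 CPM in their shams, ranges that overlap. The response to resection differed between 5 and 1 dpi for 0 of 19166 genes in edgeR's test of the interaction, although the unadjusted p-value was under 0.05 for 2675 of them, and DESeq2's Wald test called 1374. For krt91 the difference of the log2 fold changes, 5 dpi minus 1 dpi, was -4.49 (SE 1.1, adjusted p = 0.278). For krt5 it was -10.70 (SE 1.93, adjusted p = 0.172), and for GAPDH it was 3.85 (SE 0.81, adjusted p = 0.236). An absence of calls does not show that the responses were alike.

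**Figure D5:**
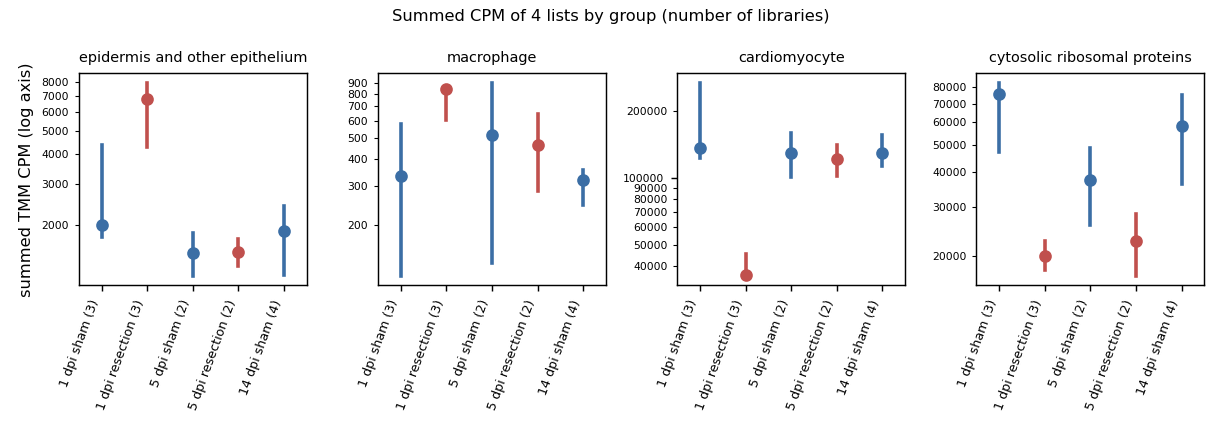
Summed CPM (y axis, log scale, 1 scale over 21 libraries) of 4 gene lists in the sham and resection groups at 1 and 5 dpi and in the 14 dpi shams (x axis, number of libraries in brackets). Points are medians and bars run from the lowest to the highest library, and the 1 dpi resections lie below the other groups shown for the cardiomyocyte list. For the epithelial list their lowest library (4279 CPM) lies below the highest 1 dpi sham (4333 CPM), so these groups overlap.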

How the data were processed

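RNA from streptavidin-captured nuclei of single hearts was amplified, sequenced as paired-end reads, mapped to danRer10 with STAR 2.4.2a and counted with featureCounts, and the authors deposited raw counts per gene without normalisation. The labels give a reverse strand setting. Of the 23 columns of counts 2 match no sample and were not used. Of 31953 gene IDs, 2369 were named from the authors' Supplementary Data 1 and 23936 from a reference table of symbols, and 5648 have no name. Coordinates and sequences are not used here.

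Counts of the 6 libraries were filtered with filterByExpr, scaled by TMM and tested with edgeR 4.0.16 in R 4.3.3 (quasi-likelihood test, Benjamini-Hochberg adjusted p-value under 0.05). The interaction with 5 dpi was fitted on 10 libraries. SE is the size of the log2 fold change divided by the square root of F. A fold against shams at 0 is a lower bound against 3 counts summed over the shams (0.0322 CPM), and a ratio against 1 to 3 counts has an exact 95% Poisson interval. No 2 libraries agreed within sampling noise (chi-square per degree of freedom 76.2 or more). Alternatives were DESeq2 1.42.0, other scalings and filters, all 21 libraries, a replicate block, thinning and each library left out. Named are the 12 genes with the smallest p-values and the 8 most abundant per direction, up to 4 called members per list and direction (or the 2 most abundant), defining markers, genes the study names, and the 8 called genes per direction holding 10 or more counts in each library. Of the marker and study genes, mpeg1.1, hbba1 and lox2lb were matched to no ID. Genes and lists were chosen with earlier results of these data known. Kinases of the S6 family were kept out of the ribosomal list. The test was checked on simulated counts. The values of a called leukocyte gene are not reported here.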

Additional observations from a re-analysis of the deposited data

How the results depend on the processing

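Each called gene kept its direction in every alternative in which it was tested. For the 1260 higher genes at 0 in every sham this was fixed in advance. The alternatives also reuse the same libraries, so the agreement in sign is no separate evidence. The main counts were 1780 higher and 374 lower. They were 3708 and 580 with DESeq2's Wald test, 1741 and 369 with DESeq2's size factors, 1827 and 202 with upper-quartile scaling, 88 and 137 with no filter beyond 1 count, 1 and 0 among the 7124 genes holding 10 or more counts in each library (1174 at an unadjusted p-value under 0.05), 222 and 371 with all 21 libraries in 1 fit, and 1802 and 294 after thinning. Leaving out 1 library gave 0 to 56 higher and 0 to 121 lower, and leaving out sham replicate 3 and resection replicate 4 together, chosen after seeing the data, gave 0 and 0 (3866 at an unadjusted p-value under 0.05). For these large losses the cause was not tested. With the replicate block the counts were 41 and 12. The numbers shared by the groups are 2 and 3 only, and their deviations correlated at -0.0082 and -0.00749. With so few shared numbers, these values cannot settle whether the numbers pair the libraries. The main test treats the libraries as unpaired. For the interaction with 5 dpi, main 0, the counts were 1374 with DESeq2's Wald test, 180 with no filter, 0 with DESeq2's size factors and with 10 or more counts in each library, and 0 to 2 without 1 library. The mean number of detected genes moved from 13503 to 12641 in the shams on thinning and from 20869 to 20825 after resection.

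Among named genes, FN1, cd74a, col1a1a, hbegfb, krt15 and krt4, none of which passed the test, changed sign under some settings. The log2 fold change of col1a1a was -0.0175 with DESeq2's Wald test, -0.0088 with DESeq2's size factors, -0.088 with all 21 libraries, -0.346 with the replicate block and -0.414 without sham replicate 3 and resection replicate 4. For FN1 it was -0.0271 with all 21 libraries, -0.306 with the replicate block and -0.412 without both libraries. For hbegfb it was -0.481 without both libraries. For krt15 it was 0.0673 with upper-quartile scaling, 0.163 with 10 or more counts in each library and 0.0781 without both, and for krt4 0.0164 and 0.0289 with upper-quartile scaling and with 10 or more counts in each library. When 1 library was left out, the values ran from -0.183 to 0.678 for FN1, -0.106 to 3.28 for cd74a, -0.21 to 0.619 for col1a1a, -0.285 to 2.74 for hbegfb, -0.577 to 0.0626 for krt15 and -0.616 to 0.366 for krt4.
With 3 hearts a group and shams of unequal composition, a gene that misses the threshold is not shown to be alike in the groups. Levels at 1 to 3 counts carry intervals for counting error only, because reads without molecular identifiers are not independent molecules. Lower bounds against shams at 0 are limited in the same way and do not cover the spread between hearts. Promoter motifs were not analysed here.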

Other observations

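A minority of cell cycle genes was called higher, at low levels. Of 60 tested members of that list 10 were higher (16.7%, against 11.3% of all genes tested), none was lower and 50 were not called. Of the 10, 8 had 0 counts in every sham and so entered the test only through resection, and 2 had 1 to 3. The list's median log2 fold change was 0.96, and it was 0.17 over the 17 members holding 10 or more counts in each library. FOXM1, a transcription factor of the late cycle, had 0.935, 0.506 and 1.59 CPM after resection, plk4, a kinase of centriole duplication, had 3.14, 2.92 and 4.16 CPM, and ube2c, a ubiquitin-conjugating enzyme of mitosis, had 2.46, 2.18 and 2.199 CPM. None of the 10 was called when 1 library, whichever it was, was left out. Of 237 tested solute carriers 21 were higher (8.86%, under the 11.3% of all genes) and 3 were lower (1.27%, under 2.37%). SLC25A5, an ADP/ATP carrier of mitochondria, had 25699.8, 31727 and 89884 CPM in the shams and 8505, 7651 and 7537 CPM after resection (log2 fold change -2.64, SE 0.54, adjusted p = 0.0316). SLC16A3, a lactate exporter, had 239.5, 458 and 704 CPM in the shams and 178, 93.3 and 102 CPM after resection (log2 fold change -1.91, SE 0.50, adjusted p = 0.0377).

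Of 10 tested genes of the membrane-spanning 4A family 6 were higher, a share above the 11.3% of all genes tested. Of the 6, 5 had 0 sham counts and so entered the test only through resection, and 1 had 1 to 3. The 1 member holding 10 or more counts in each library was not called and had a log2 fold change of -1.23. ms4a17a.4 had 29.2, 57.1 and 72.9 CPM after resection, at least 1649-fold higher than in the shams, and was called in 8 of 14 alternative fits. It was at 0 in every sham and entered the test only through resection, so these calls are no separate evidence of a response. Of 22 tested S100 and annexin genes 5 were higher, all from 0 sham counts. anxa1b, a paralog of an annexin with anti-inflammatory actions in mammals, had 12.8, 26.1 and 20.98 CPM after resection. Of 63 tested chromatin genes 4 were higher, all of the ARID family, among them arid3b with 0.0424, 0 and 0 CPM in the shams and 3.99, 6.73 and 3.71 CPM after resection and ARID1A with 0.0424, 0.0567 and 0 CPM in the shams and 4.42, 8.60 and 0.937 CPM after resection. Shares for the last 2 lists, 22.7% and 6.35%, lay on both sides of the 11.3% of all genes tested. The membrane-spanning 4A, chromatin, junction, mucin and oxidative phosphorylation lists were chosen after the called genes had been seen.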
